A study of Mus musculus with 6 samples.

Results

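Itaconate, arginine and polyamine metabolism was followed through 9 enzyme genes in CD11b+ cells from the mouse cortex after repeated systemic LPS. The genes were chosen by name, and all 9 were among the 16516 genes of the count table. They are Acod1, which makes itaconate, the inducible nitric oxide synthase Nos2, the arginases Arg1 and Arg2, the arginine-synthesising Ass1, and the polyamine enzymes Odc1, Srm, Sms and Sat1. Of these, 6 passed the filter on low counts and were among the 13151 genes tested. Nos2, Arg1 and Arg2 did not pass it and are given by their counts and by a fit without the filter.

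RNA-seq was performed on 6 samples, 3 from NS mice and 3 from 4LPS mice. All were male wild-type C57BL6/J mice aged 8 to 10 weeks. The 4LPS mice received LPS from Escherichia coli (055:B5) by intraperitoneal injection at 500 µg/kg on each of 4 days, and the NS mice received saline on the same schedule. Cortices were taken 7 days after the first injection and cells were isolated with anti-CD11b magnetic beads, with 2 mice pooled per sample. The bead sort keeps every cell that carries CD11b, which includes neutrophils, monocytes, border macrophages and NK cells besides microglia. Each sample held 15158342 to 15746610 counts.

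Macrophages and microglia remodel these pathways when they meet bacterial products. Acod1 takes cis-aconitate out of the tricarboxylic acid (TCA) cycle and turns it into itaconate, which inhibits succinate dehydrogenase. Arginine is shared between nitric oxide synthase, which gives nitric oxide and citrulline, and arginase, which gives ornithine and urea, while Ass1 and Asl rebuild arginine from citrulline. Odc1 converts ornithine to putrescine, Srm and Sms lengthen putrescine to spermidine and then spermine, and Sat1 acetylates both for breakdown or export.

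Before the enzymes, the samples themselves were compared. The microglial markers were present in full, with a summed level of 48988 to 51848 CPM (counts scaled to a common library size) in NS and 48542 to 49123 CPM in 4LPS over 12 genes. On the first principal component (61.3% of the variance) NS replicates 1, 2 and 3 lay at -48.5, -40.2 and -11.1. The same replicates of 4LPS lay at 16.7, 49.6 and 33.4. On the second principal component (18.6%) NS replicate 3 stood apart from the other NS samples, at -34.1 against 4.66 and 5.32. The 4LPS samples were spread along the same component, at 30.4, -14.5 and 8.22 for replicates 1, 2 and 3. The neutrophil markers of NS replicate 3 summed to 739 CPM against 187 and 196 CPM in the other NS samples. In the 4LPS samples they summed to 1145, 486 and 752 CPM. Choroid plexus markers varied widely, with sums of 6525, 5678 and 649 CPM in NS and 2200, 1.97 and 527 CPM in 4LPS, and none of the 6 passed with edgeR (0 at an unadjusted p under 0.05), DESeq2 or limma-voom. Their level was highest in NS replicates 1 and 2, and their part in the results was not tested. The results that turn on NS replicate 3 are given with and without it.

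Where a promoter sequence was at hand it was read from RefSeq (GRCm38.p6), from 250 bases before to 50 bases after the annotated start. A sequence was found for 5 of the 9 genes. The promoters of Acod1 and Ass1 are shown because these genes had the largest fitted differences among the genes tested that have one. Capitals mark TATAAA in Acod1, on chr14:103046762-103047061 (plus strand), and the palindrome CACGTG in Ass1, on chr2:31470020-31470319 (plus strand).
Acod1: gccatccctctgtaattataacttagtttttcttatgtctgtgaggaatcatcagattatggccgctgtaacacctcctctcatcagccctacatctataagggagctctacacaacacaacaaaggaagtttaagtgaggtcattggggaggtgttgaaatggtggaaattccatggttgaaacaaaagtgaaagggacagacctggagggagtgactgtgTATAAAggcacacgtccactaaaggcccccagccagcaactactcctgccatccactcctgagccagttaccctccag
Ass1: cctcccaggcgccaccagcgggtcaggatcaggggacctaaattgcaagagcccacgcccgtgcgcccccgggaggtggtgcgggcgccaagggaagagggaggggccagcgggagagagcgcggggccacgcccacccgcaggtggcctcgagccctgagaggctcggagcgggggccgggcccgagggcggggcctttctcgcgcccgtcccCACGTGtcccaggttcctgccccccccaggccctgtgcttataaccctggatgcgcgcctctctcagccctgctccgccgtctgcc
The TATAAA of Acod1 lay at -28 to -23 from the start, and TATAAA was held by 13.6% of 32851 promoters of this length when both strands were searched. The CACGTG of Ass1 lay at -36 to -31 and was held by 7.15% of them. CACGTG was also in 1 promoter of Sms, at -196 to -191. TTCNNNGAA (8.3% of promoters) was in none of the 6 promoters of these genes, and a κB consensus (4.51%) was in 1 promoter of Sms. These matches are descriptions of the letters and not of binding.

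The levels of the enzymes spanned a wide range, compared here as FPKM, which is scaled for gene length. In NS, Sat1 was the most abundant at a mean of 284 FPKM, followed by Srm at 33.8, Odc1 at 19.2, Sms at 5.82 and Ass1 at 2.25 FPKM. Each of these was above the next in every NS sample, and Ass1 was likewise above Arg2. Arg2 (0.283 FPKM), Nos2 (0.183), Acod1 (0.123) and Arg1 (0.0567) followed, and neighbours among these 4 overlapped in NS. CD11b+ cells of both groups thus carried abundant polyamine transcripts and very few transcripts of the inducible enzymes. In 4LPS the upper order was the same, from Sat1 (318 FPKM) to Ass1 (4.15 FPKM). Below it Arg2 (0.693 FPKM), Acod1 (0.52) and Arg1 (0.257) came before Nos2 (0.0433), which moved to the last place. Arg2 and Acod1 overlapped, as did Acod1 and Arg1, whereas every Arg1 value was above every Nos2 value in 4LPS.

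**Figure D1:**
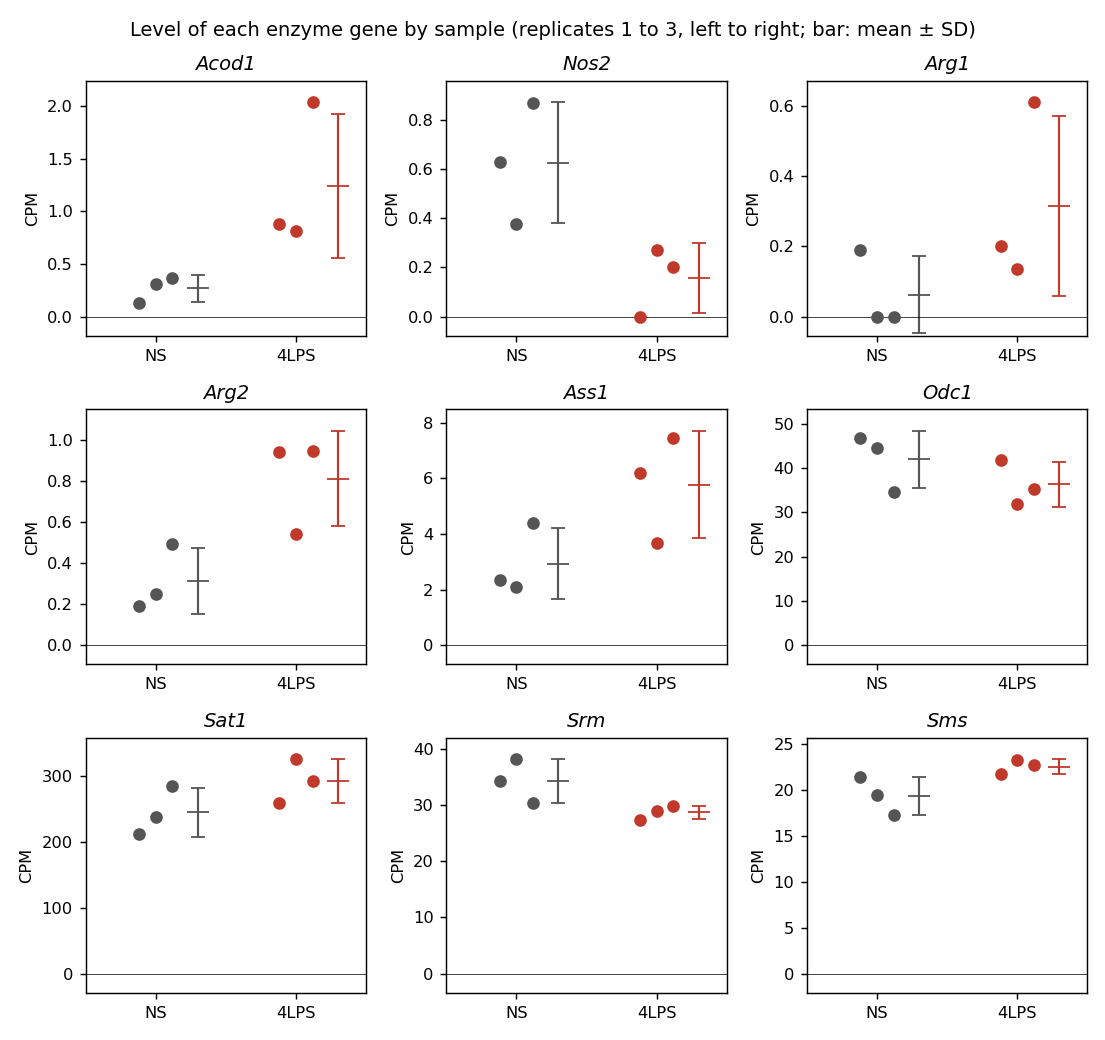
Level of each of the 9 enzyme genes in CPM (vertical axis, linear, own scale per panel) in the 3 NS and 3 4LPS samples. Points are samples, and bars give the mean ± SD of a group. The 3 4LPS samples lay above the NS samples for Acod1 (0.816 to 2.03 against 0.126 to 0.372 CPM) and below them for Nos2.

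Acod1 was the 1 enzyme gene of the set that passed the test, and it was higher in 4LPS. Acod1 (Entrez 16365, chr14:103284413-103294009 in GRCm39, plus strand, 5 exons) had 2, 5 and 6 counts in NS and 13, 12 and 30 counts in 4LPS. The same values were 0.126, 0.314 and 0.372 CPM in NS and 0.877, 0.816 and 2.03 CPM in 4LPS. All 4LPS samples were above all NS samples, and 4LPS replicate 3 was the highest. The mean rose from 0.271 ± 0.129 to 1.24 ± 0.687 CPM (SD, n = 3 per group). The log2 fold change was 2.16 (SE 0.57, 95% interval 0.85 to 3.48), with an adjusted p of 0.0386 by edgeR's quasi-likelihood test over all genes tested. It was the 1 called higher of the 6 tested, where 9.95% of all genes tested were. Nothing is read from that count, since Acod1 passed the filter through its 4LPS samples, and Nos2 and Arg2 did not pass it. None of the 6 was called lower by edgeR, DESeq2 or limma-voom, against 6.43% of all genes with edgeR, and 1 of them, Srm, had an unadjusted p under 0.05 in that direction with each tool.

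The Acod1 difference rested on few reads, 13 in NS and 55 in 4LPS. Their ratio, scaled for depth, was 4.58 (95% exact interval 2.47 to 9.14, covering counting error only). Acod1 stayed a rare transcript in 4LPS, since its level was at the 27.3 percentile of all genes in FPKM, from 14.7 in NS. The call was kept without NS replicate 3 (log2 fold change 2.46, adjusted p = 0.0405) and was not kept when any other sample was left out, with adjusted p from 0.0538 to 0.123 and log2 fold changes from 1.62 to 2.40.

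None of the other enzymes of the TCA cycle list passed the test. Of its 16 genes, all tested, Acod1 was the 1 that passed with edgeR and with DESeq2, and Sdha, Idh3a, Suclg1 and Dlst had an unadjusted p under 0.05 with edgeR. The median log2 fold change of the list was -0.10, beside -0.02 over all genes tested. Sdha, the catalytic subunit of succinate dehydrogenase, had 208, 220 and 209 CPM in NS and 238, 233 and 232 CPM in 4LPS. The groups did not overlap, and the log2 fold change of 0.14 (interval 0.04 to 0.24) had an adjusted p of 0.0603. Suclg1, a subunit of succinyl-CoA ligase, had a log2 fold change of -0.26 and an adjusted p of 0.0533.

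For the enzymes that compete for arginine, every 4LPS sample had less Nos2 and more Arg2 than every NS sample, at counts too low for the filter. Nos2 (Entrez 18126, chr11:78811613-78851080, plus strand, 27 exons) had 10, 6 and 14 counts in NS and 0, 4 and 3 counts in 4LPS. These were 0.629, 0.377 and 0.868 CPM against 0, 0.272 and 0.203 CPM. The groups did not overlap, with the highest 4LPS sample below the lowest NS sample. In the fit without the filter the log2 fold change was -1.92 (SE 0.74, interval -3.59 to -0.25), and the adjusted p was 0.125. The summed counts of 30 and 7 gave an NS to 4LPS ratio of 3.96 (exact interval 1.70 to 10.7).

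Arg2 (Entrez 11847, chr12:79177524-79203075, plus strand, 8 exons), the mitochondrial arginase, had 3, 4 and 8 counts in NS and 14, 8 and 14 counts in 4LPS. In CPM these were 0.189, 0.251 and 0.496 against 0.944, 0.544 and 0.949. The groups did not overlap, although NS replicate 3 came close to 4LPS replicate 2. The log2 fold change was 1.36 (SE 0.49, interval 0.25 to 2.47), with an adjusted p of 0.107. Arg1 (Entrez 11846, chr10:24791118-24803817, minus strand, 8 exons), the cytosolic arginase and a common marker of alternative activation, had 3, 0 and 0 counts in NS and 3, 2 and 9 counts in 4LPS. The groups overlapped in CPM only through NS replicate 1 and 4LPS replicate 2. The fitted log2 fold change without the filter had an SE of 1.11 and an interval of -0.31 to 4.71, with an adjusted p of 0.227. The 3 summed counts of NS against 14 in 4LPS gave a ratio of 5.05 (exact interval 1.41 to 27.4).

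Among the 9 genes, 5 did not overlap between groups, namely Acod1, Nos2, Arg2, Srm and Sms. Of the 6 tested, 3 did not overlap, and 37.4% of all genes tested did not (19.9% lay above NS in every 4LPS sample and 17.5% below). Acod1, Nos2, Arg1 and Arg2 all had 15 to 70 counts over the 6 samples. Of the 1575 genes in that range, 21.5% did not overlap and 3.87% passed the test without the filter. None of Nos2, Arg1 and Arg2 passed under any of 16 other settings each, and DESeq2 gave no adjusted p for Arg1.

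The balance of Nos2 against the arginases was then taken as the Nos2 share of their summed counts, a comparison chosen after the values were seen. It was 62.5% (10 of 16, exact 95% interval 35.4 to 84.8), 60.0% (6 of 10, 26.2 to 87.8) and 63.6% (14 of 22, 40.7 to 82.8) in the NS samples. In 4LPS it was 28.6% (4 of 14, 8.39 to 58.1) and 11.5% (3 of 26, 2.45 to 30.2) in replicates 2 and 3. Replicate 1 had 0 of 17, which allows a share of up to 17.6% by the limit of 3 counts and up to 19.5% by the exact interval. Every NS share was above every 4LPS share. This follows from the counts, since neither Nos2 nor the summed arginases overlapped between groups. The NS shares lay close together, but each had an exact interval far wider than their spread, so no tight balance is read from them. The means were 62.0 ± 1.86% and 13.4 ± 14.4% (SD, n = 3), and the exact two-sided permutation test gave p = 0.1, the smallest that 3 against 3 samples allow. With counts that already separated the groups, this p was fixed beforehand and adds no support. These shares compare counts and not levels, since Nos2 and the arginases differ in length.

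**Figure D2:**
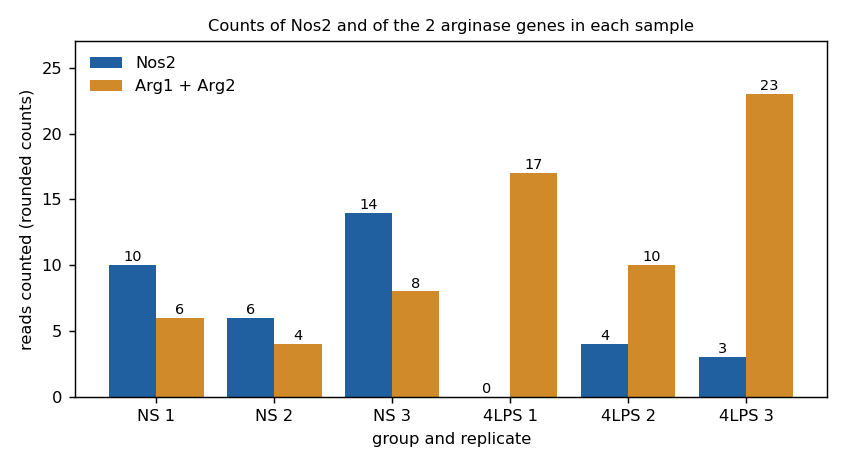
Counts of Nos2 and of Arg1 and Arg2 summed in each of the 6 samples (vertical axis, counts, starting at 0). Nos2 gave 6 to 14 counts per NS sample and 0 to 4 per 4LPS sample, while the arginases together gave 4 to 8 and 10 to 23.

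Ass1 (Entrez 11898, chr2:31352181-31410862, plus strand, 16 exons), the enzyme that joins citrulline and aspartate, was better covered. It had 2.33, 2.07 and 4.40 CPM in NS and 6.21, 3.67 and 7.46 CPM in 4LPS. NS replicate 3 was above 4LPS replicate 2, so the groups overlapped. The means were 2.93 ± 1.28 and 5.78 ± 1.93 CPM, and the log2 fold change of 0.97 (SE 0.36, interval 0.14 to 1.81) had an adjusted p of 0.104. Leaving out each of the other samples but NS replicate 3 gave an adjusted p of 0.0717 to 0.268. Without NS replicate 3 the log2 fold change was 1.39 with an adjusted p of 0.0232. With a replicate block it was 0.99 with an adjusted p of 0.0242, although nothing in the labels marks the replicate numbers as batches or pairs. Its partner Asl, which splits argininosuccinate into arginine and fumarate, had 21.7 ± 0.952 CPM in NS and 23.3 ± 0.186 CPM in 4LPS (log2 fold change 0.10, adjusted p = 0.386). Relative to the summed arginases in FPKM, Ass1 stood at 5.29, 6.87 and 7.47 in NS and at 4.58, 4.60 and 4.11 in 4LPS. The ratio was lower in all 4LPS samples, by a log2 difference of -0.55 (exact permutation p = 0.1, the smallest possible). The arginases gave 4 to 23 counts per sample, and with a pseudocount of 0.1 FPKM the difference was -0.35, with NS replicate 1 at 4.32 next to 4LPS replicate 1 at 4.25.

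Neutrophils carry CD11b, and their transcripts had higher means in 4LPS, as Acod1, Arg2 and Ass1 had. All 11 neutrophil markers, among them S100a8, S100a9, Ly6g, Mmp8 and Ltf, had a higher mean in 4LPS. None of them passed with edgeR or limma-voom (3 and 8 had an unadjusted p under 0.05), and Cxcr2 passed with DESeq2. Their median log2 fold change was 1.06, and none was at 0 in any sample. Ly6g itself was at 0.881, 0.754 and 3.84 CPM in NS and 4.38, 1.84 and 3.59 CPM in 4LPS. The summed level of these markers in NS replicate 3 (739 CPM) lay within the range of the 4LPS samples, as its Ass1 level did. For Acod1 and Arg2 the same sample (0.372 and 0.496 CPM) lay below all 4LPS samples. The part of neutrophils in the differences of Acod1, Arg2 and Ass1 was not tested. NK and T cell markers summed to 7.80 to 13.1 CPM in NS and 94.1 to 108 CPM in 4LPS, and 8 of 8 tested passed as higher. Dendritic cell markers summed to 16.5 to 29.1 CPM and 30.2 to 40.6 CPM, with 5 of 7 higher, and the part of these cells was not tested either. In sorted bulk samples, fewer cells of a type and less RNA per cell cannot be told apart.

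The 4 polyamine enzymes had log2 fold changes between -0.25 and 0.25. None of them passed with edgeR, DESeq2 or limma-voom, and Srm alone had an unadjusted p under 0.05 with edgeR. Odc1 (Entrez 18263, chr12:17594383-17601507, plus strand, 12 exons), the rate-limiting step of putrescine synthesis, had 46.8, 44.5 and 34.7 CPM in NS and 41.8, 31.9 and 35.2 CPM in 4LPS. The groups overlapped, and the log2 fold change was -0.21 (SE 0.14, interval -0.52 to 0.11, adjusted p = 0.313).

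Srm (Entrez 20810, chr4:148675940-148681792, plus strand, 7 exons), the spermidine synthase, had 34.2, 38.1 and 30.3 CPM in NS and 27.4, 28.9 and 29.8 CPM in 4LPS. All 4LPS samples were below all NS samples, by a narrow gap to NS replicate 3. The log2 fold change was -0.25 (SE 0.09, interval -0.47 to -0.03, adjusted p = 0.106). Without NS replicate 3 it was -0.33 (adjusted p = 0.0313), and without a composition factor -0.35 (adjusted p = 0.0385). Leaving out each of the other samples gave -0.27 to -0.17, with an adjusted p of 0.198 to 0.270. Sms (Entrez 20603, chrX:156226848-156275317, minus strand, 11 exons), the spermine synthase, went the other way, with 21.4, 19.4 and 17.2 CPM in NS and 21.7, 23.2 and 22.7 CPM in 4LPS. The groups again did not overlap, and the lowest 4LPS sample was next to the highest NS sample. The log2 fold change was 0.22 (SE 0.10, interval -0.01 to 0.45, adjusted p = 0.165).

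The Sms to Srm ratio, which does not depend on how the libraries are scaled, was higher in 4LPS in every sample. In FPKM it was 0.191, 0.156 and 0.172 in NS and 0.241, 0.246 and 0.229 in 4LPS. The groups did not overlap. The log2 difference was 0.47, with an exact two-sided permutation p of 0.1, which is the smallest possible, and it was 0.40 to 0.54 when each sample was left out. In CPM, Srm was lower and Sms higher in every 4LPS sample. The separation of the ratio and its p were thus fixed beforehand and add no support to either gene.

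Sat1 (Entrez 20229, chrX:153996128-153999452, minus strand, 6 exons), the acetyltransferase of polyamine breakdown, was the most abundant enzyme of the set and lay at the 98.7 percentile of all genes in FPKM. Its levels were 212, 239 and 286 CPM in NS and 260, 326 and 293 CPM in 4LPS. NS replicate 3 lay among the 4LPS samples, so the groups overlapped. The log2 fold change was 0.25 (SE 0.12, interval -0.02 to 0.53, adjusted p = 0.174), and without NS replicate 3 it was 0.38 (adjusted p = 0.0300). Leaving out each of the other samples gave an adjusted p of 0.109 to 0.412. Sat1 alone held 79.3% to 85.7% of the summed FPKM of the 9 genes in NS and 83.7% to 87.5% in 4LPS. The Sat1 to Odc1 ratio in FPKM was 11.4, 13.6 and 21.0 in NS and 15.8, 25.7 and 21.4 in 4LPS, which overlapped (log2 difference 0.47, exact permutation p = 0.2). The difference was 0.28 without NS replicate 1, 0.31 without 4LPS replicate 2 and 0.72 without NS replicate 3.

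**Figure D3:**
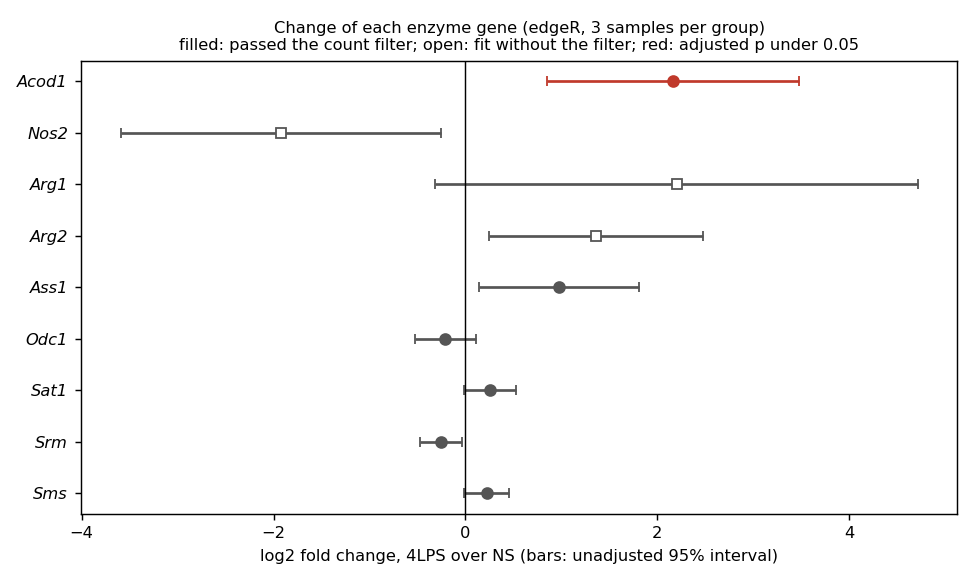
Log2 fold change of 4LPS over NS for each of the 9 enzyme genes (horizontal axis) with its unadjusted 95% interval from edgeR. Open squares (Nos2, Arg1 and Arg2) come from the fit without the filter on low counts. Acod1 (2.16) passed the adjusted threshold, while the polyamine enzymes lay between -0.25 and 0.25 with short intervals.

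The transporters and other enzymes of the same pathways were counted from lists that also hold the 9 genes. Outside the 9, the 5 metabolic lists held 59 genes of the table, of which 55 were tested. Of these, 2 were higher and 4 were lower in 4LPS, beside 9.95% and 6.43% of all genes tested. The median log2 fold change of the 55 genes was -0.10. In the arginine list 19 of 23 genes in the table were tested. None was higher with edgeR, DESeq2 or limma-voom (1, Ass1, had an unadjusted p under 0.05). With edgeR 3 were lower (15.8% of those tested), namely Slc7a1, Ddah2 and Ddah1. With so few genes nothing is read from the counts of these lists.

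Slc7a1, the main arginine importer of most cells, had 42.9, 37.3 and 46.0 CPM in NS and 24.9, 28.0 and 31.5 CPM in 4LPS. No 4LPS sample reached the lowest NS sample. Slc7a1 fell by 0.58 on the log2 scale (SE 0.11, adjusted p = 0.0119). Ddah2, which breaks down the methylarginines that inhibit nitric oxide synthase, fell from 38.6 ± 2.28 to 27.1 ± 1.66 CPM (log2 fold change -0.51, SE 0.08, adjusted p = 0.00455). Both calls held under each of 19 other settings. Ddah1, the related enzyme, fell from 2.44 ± 0.420 to 1.29 ± 0.139 CPM (log2 fold change -0.92, SE 0.26, adjusted p = 0.0475), but the call was kept in 4 of 16 other settings only. It was lost without each sample in turn, with adjusted p from 0.0591 to 0.127.

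The other arginine genes did not pass. Slc7a2, an inducible importer, had 7.38 ± 1.48 CPM in NS and 5.24 ± 0.941 CPM in 4LPS (adjusted p = 0.136). Nos3, the endothelial nitric oxide synthase, had 17.3, 11.6 and 27.3 CPM in NS and 5.40, 7.34 and 18.2 CPM in 4LPS (log2 fold change -0.86, adjusted p = 0.232). Endothelial markers were likewise lower in 4LPS, with 3 of 10 genes called. Their sums were 476, 381 and 772 CPM in NS and 195, 244 and 411 CPM in 4LPS. Astrocyte markers summed to 394 to 427 CPM in NS and 290 to 308 CPM in 4LPS, with 6 of 10 genes lower. The part of either cell type in the values of Nos3, Slc7a1, Ddah1 and Ddah2 was not tested. Among genes of tetrahydrobiopterin, the cofactor of nitric oxide synthase, 5 of 7 were tested and none passed with edgeR, DESeq2 or limma-voom, with 0 at an unadjusted p under 0.05 with edgeR. Gch1, its first enzyme, had 4.90 ± 0.469 CPM in NS and 4.74 ± 0.486 CPM in 4LPS.

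In the polyamine list, 18 of 19 genes in the table were tested, of which Atp13a2 and Paox rose and Oaz2 fell. Atp13a2, the lysosomal polyamine exporter, had 177, 191 and 166 CPM in NS and 265, 274 and 313 CPM in 4LPS. The groups were far apart, and the mean rose from 178 ± 12.3 to 284 ± 25.8 CPM. The log2 fold change was 0.67 (SE 0.08, adjusted p = 0.00118), and the call held under each of 19 other settings. Paox, the oxidase that acts on the acetylated polyamines made by Sat1, rose from 26.8 ± 2.91 to 35.8 ± 4.39 CPM (log2 fold change 0.42, SE 0.12, adjusted p = 0.0464) and kept its call in 9 of 19 other settings. The adjusted p was 0.139 without NS replicate 1, 0.0637 without NS replicate 3, 0.124 without 4LPS replicate 1 and 0.126 without 4LPS replicate 3. Oaz2, an antizyme that holds Odc1 in check, fell from 54.7 ± 5.62 to 41.7 ± 3.80 CPM (log2 fold change -0.39, SE 0.10, adjusted p = 0.0316) and kept it in 15 of 19. Its adjusted p was 0.110 without NS replicate 1, 0.0865 without NS replicate 2, 0.120 without 4LPS replicate 2 and 0.107 without 4LPS replicate 3.

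Amd1, which supplies the aminopropyl groups for Srm and Sms, had 88.5 ± 10.0 CPM in NS and 72.3 ± 3.04 CPM in 4LPS (log2 fold change -0.29, adjusted p = 0.0523), and passed with DESeq2. Smox, the spermine oxidase, had 157 ± 14.9 and 158 ± 9.46 CPM (log2 fold change 0.01, interval -0.17 to 0.19). The 4 hypusination genes, which use spermidine to modify the translation factor Eif5a, were all tested and none passed with edgeR, DESeq2 or limma-voom. Eif5a itself, the 1 with an unadjusted p under 0.05, had a log2 fold change of 0.15 (interval 0.01 to 0.29, adjusted p = 0.125).

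**Figure D4:**
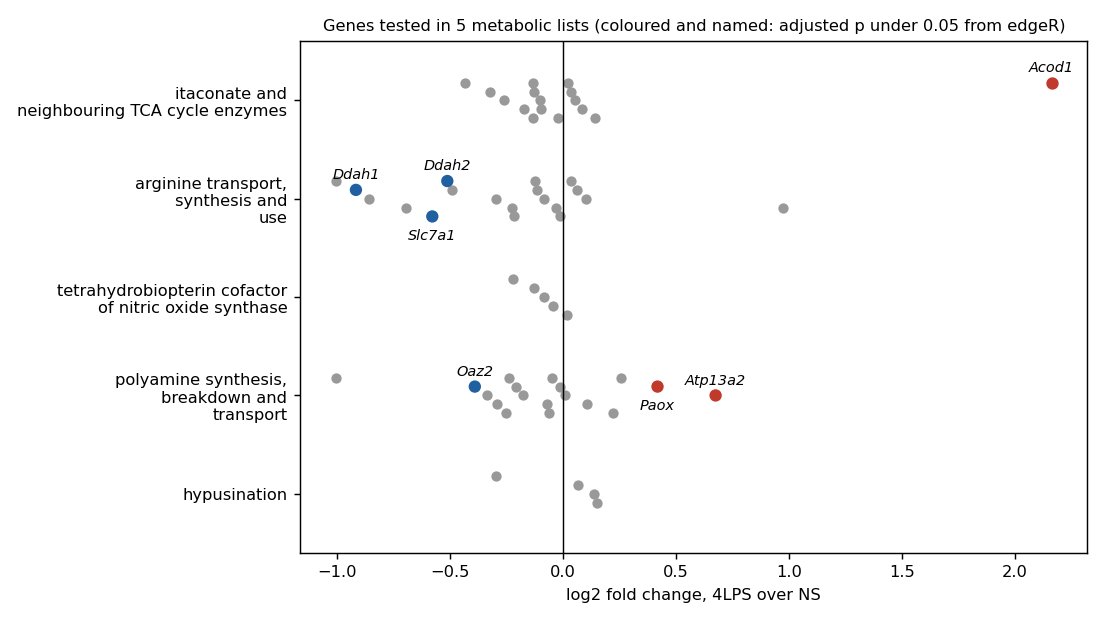
Log2 fold change of 4LPS over NS (horizontal axis) for the tested genes of the 5 metabolic lists (vertical axis), 1 point per gene. Genes with an adjusted p under 0.05 with edgeR are named and coloured, red for higher and blue for lower in 4LPS, and most others lie near 0. Acod1 stands at 2.16 and Atp13a2 at 0.67.

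The genes whose levels followed each enzyme most closely were found by the root-mean-square difference of centred log2 CPM over the 6 samples, among 10257 genes with at least 5 CPM. For Acod1 they were Ptger4 (0.43) and Cp (0.46), for Ass1 Plbd1 (0.11) and Lgals3 (0.14), for Srm Fscn1 (0.02) and Prmt2 (0.03), and for Sms Bri3 and Mmp2 (0.03 each). Odc1 was followed by Ndufv3 (0.03) and 1110032A03Rik (0.04), and Sat1 by Esco1 and D16Ertd472e (0.05 each). The distances of Acod1 were larger than those of the other enzymes, at 2 to 30 counts per sample.

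**Figure D5:**
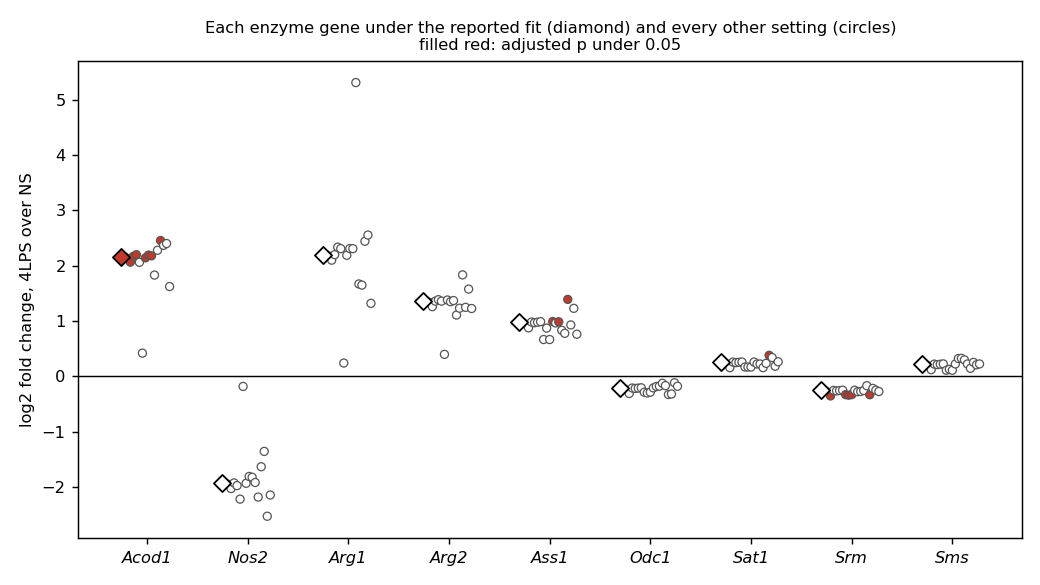
Log2 fold change of 4LPS over NS (vertical axis) for each of the 9 enzyme genes (horizontal axis), as reported (diamond) and under every other processing setting tried (circles), in red where the adjusted p was under 0.05. Values from limma on log2(FPKM + pseudocount) are on that scale and are smaller for genes with low counts. Acod1 passed in 9 of 16 other settings, Srm in 5 of 19, Ass1 in 3 of 19 and Sat1 in 1 of 19.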

How the data were processed

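Read counts came from CD11b+ cells of 3 NS and 3 4LPS samples. The authors filtered paired reads, mapped them with HISAT2 2.0.4 and Bowtie2 2.2.5 (the notes name mm39 and mm10) and quantified genes with RSEM 1.2.8, with an annotation not given in the sources used here. What the authors deposited are expected counts, which are estimated and not normalized (2.77% were not whole). The same deposited table holds FPKM and TPM values, scaled for length and depth, and a normalized signal, which is the count divided by a size factor. The last 2 and the authors' group means were not used.

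Expected counts were rounded and fitted in R 4.3.3 with edgeR 4.0.16 (TMM, filterByExpr, quasi-likelihood F-test, Benjamini-Hochberg adjustment over all 13151 genes tested). Genes failing the filter were fitted without it. Fold changes are 4LPS over NS, and CPM used TMM library sizes. Ratios were taken on log2 FPKM and compared by exact permutation. Alternatives were other scalings, filters and pseudocounts, DESeq2 1.42.0, limma 3.58.1, a length correction, a replicate block and each sample left out. The fit was tested on simulated data.

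The enzymes and lists were chosen with earlier results of these data known. Named genes are the 9 enzymes, all genes passing in a pathway list (at most 5 per direction) and the 2 nearest patterns per tested enzyme. Not every gene passing in a list is reported here. Other genes, the range of 15 to 70 counts and the Nos2 share were chosen after their values were seen. P-values measure the spread between pools of 2 mice. Gene positions are those of GRCm39 and promoter positions those of GRCm38.p6, and the 2 were not converted. Reads shared with related genes can be split by RSEM.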

Additional observations from a re-analysis of the deposited data

How the results depend on the processing

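Depth limited Acod1, Nos2, Arg1 and Arg2, at 0 to 30 counts per sample. No log2 fold change of the 9 enzymes changed sign under any setting, while the log2 ratio of Arg1 to Arg2 ranged from -0.40 to 0.83 without each sample. Of the 9 enzymes, 1 was called higher and none lower. The number higher was 0 with limma-voom and with limma on FPKM (all 3 fits). It was also 0 with at least 50 counts in 3 samples, which drops Acod1. The limma fits limited to genes with at least 1 FPKM in 3 samples drop Acod1 too. It was 2 with the replicate block with or without the length correction. The number lower was 1 with no composition factor and with limma on FPKM. Leaving out each sample gave 0 to 3 higher and 0 to 1 lower, with 3 higher (Acod1, Ass1 and Sat1) and 1 lower (Srm) without NS replicate 3 and 0 higher without any other sample.

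Acod1 had 2.06 with limma-voom (adjusted p = 0.0516) and 0.42 with limma on log2(FPKM + 1) without a filter (0.0804). Its adjusted p ranged from 0.0177 to 0.123. Ass1 passed with the replicate block (0.99, adjusted p = 0.0242) and the block with the length correction (0.99, 0.0176). Srm passed with no composition factor (-0.35) and with limma on FPKM (-0.33 and -0.34, and -0.33 without a filter). The log2 fold changes without each sample were 1.62 to 2.46 for Acod1, 0.76 to 1.39 for Ass1, 0.16 to 0.38 for Sat1 and -0.33 to -0.17 for Srm. The log2 ratio of Ass1 to the arginases was -0.35 with a pseudocount of 0.1 FPKM. The causes were not tested.

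Of the 79 genes tested outside the 9 in all 7 lists (5 metabolic and 2 of activation markers), 10 were higher and 4 lower, beside 9.95% and 6.43% of all genes tested. The number lower was 7 with upper-quartile factors, 11 with no composition factor, 12, 12 and 14 with limma on FPKM, and 7 with the block and length correction, and leaving out each sample gave 2 to 6. Of all genes, 1308 were higher and 845 lower. The number lower was 1711 with no composition factor and 1486, 1454 and 1335 with limma on FPKM, whose numbers higher were 823, 813 and 818. The number higher was 2166 with the length correction and 2460 with the block and length correction. Leaving out each sample gave 781 to 1629 higher and 363 to 1215 lower. The share of calls that were higher was 60.8%, and was 34.6% with no composition factor, 35.6% to 38.0% with limma on FPKM, 73.6% with the length correction and 72.0% without 4LPS replicate 2.

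Same-numbered samples did not deviate together (correlations 0.473, -0.262 and 0.0663), so the replicate numbers were not taken as pairs. The replicate block gave 1275 genes higher and 1081 lower.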

Other observations

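Genes often used to mark classical and alternative activation of macrophages were read beside Nos2 and Arg1, which belong to them. Of 13 tested genes of the classical list, 5 were higher in 4LPS and none lower with edgeR, with a median log2 fold change of 0.43. Irf5 and Il6 were lower at an unadjusted p under 0.05, and Irf5 passed as lower with DESeq2. Ccl5, a chemokine gene also made by NK and T cells, rose from 1.60 ± 0.601 to 62.0 ± 10.6 CPM. The interferon-induced chemokines Cxcl9 (0.708 ± 0.395 to 4.34 ± 0.413 CPM) and Cxcl10 (3.77 ± 1.89 to 10.9 ± 1.74 CPM) rose, as did the costimulatory receptor Cd86 (log2 fold change 0.36). The Cxcl10 call was lost on leaving out NS replicate 1 (adjusted p = 0.0737), replicate 1 of 4LPS (0.0503) or replicate 3 of 4LPS (0.0600). Il1b, Tnf and Il6 did not pass, and Il1b had 16.4, 16.2 and 61.5 CPM in NS and 49.9, 59.0 and 97.4 CPM in 4LPS. The Il1b level of NS replicate 3 lay within the range of the 4LPS samples.

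Of 11 tested genes of the alternative list, 3 were higher and none lower with edgeR (0 at an unadjusted p under 0.05, and 0 with DESeq2 and limma-voom), with a median log2 fold change of 0.33. Msr1, a scavenger receptor, rose from 8.30 ± 1.17 to 20.4 ± 5.15 CPM, Il4ra, the interleukin 4 receptor chain, had a log2 fold change of 0.47, and Ccl22 rose from 0.980 ± 0.200 to 3.18 ± 0.297 CPM. Ccl22 is also made by dendritic cells, whose markers were higher in 4LPS, and their part was not tested. Chil3 and Mrc1 did not pass (adjusted p = 0.252 and 0.725). Arg1, Retnla, Il10 and Ccl17 did not pass the filter. Retnla had 0.836 ± 0.320 CPM in NS and 0.271 ± 0.0676 CPM in 4LPS, with no overlap. Of all genes with 15 to 70 counts over the 6 samples, 21.5% did not overlap. Il10 went the other way, with 0, 0 and 5 counts in NS and 13, 2 and 14 counts in 4LPS. Its log2 fold change without the filter was 2.57 (adjusted p = 0.152 with edgeR). Ccl17 had 0.396 ± 0.128 CPM in NS and 0.339 ± 0.0675 CPM in 4LPS. Over all genes tested, 9.95% were higher, and with so few genes nothing is read from the counts of the lists.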
